A study of Mus musculus with 75 samples.

Results

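The 9 genes of MHC class I antigen presentation described here were followed through the deposited counts of enteric glial cells, the glia of the gut's own nervous system. They were chosen by symbol: the heavy chains H2-K1 and H2-D1, the light chain B2m, the peptide transporter subunits Tap1 and Tap2, the loading factor Tapbp, the immunoproteasome subunits Psmb9 and Psmb10, and the regulator Nlrc5. All 9 symbols were present once in each table, among 21051 symbols in the table of untreated and 2 h libraries and 21076 in the table of 24 h libraries, and all 9 passed the filter on low counts in the 3 experiments.

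The 75 libraries, each of one gut region and layer, fall into 16 groups. The labels give mouse numbers only at 24 h, so elsewhere p-values measure the spread between libraries, which may be technical, and how the cells were isolated is not given in the sources used here. Every animal, controls included, carried a transgene for the green fluorescent protein eGFP under a glial promoter. Untreated adult mice with this transgene alone gave glia of the myenteric plexus (the nerve layer between the muscle coats) and of the submucosal plexus: 6 libraries each from the small intestine and 5 each from the colon. In the other experiments myenteric glia were taken 2 h or 24 h after 1 intraperitoneal injection of LPS (lipopolysaccharide, bacterial endotoxin) at 2 mg/kg, or of PBS (phosphate-buffered saline). At 2 h there were 4 libraries of such mice per region and treatment. At 24 h the mice were either Gpr37WT with the transgene, called wild type here after their label, or Gpr37-/- with the transgene, called knockout, after the receptor gene Gpr37. For wild-type mice the small intestine gave 6 libraries after PBS and 4 after LPS, and the colon 4 and 5. For knockout mice the small intestine gave 4 after PBS and 5 after LPS, and the colon 5 and 4. Several 24 h mice gave a library from each region, so the regions are not independent sets of animals.

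MHC class I shows peptides from inside a cell to CD8 T cells. Proteasomes cut proteins into peptides, and interferon swaps in the immunoproteasome subunits, whose products suit class I. Tap1 and Tap2 pump the peptides into the endoplasmic reticulum, where Tapbp (tapasin) bridges the transporter to a heavy chain paired with B2m until a fitting peptide is bound. Nlrc5 is a transactivator that works through a conserved promoter module of class I genes, and interferon and NF-kB signalling act on further elements upstream of it. Cells of the healthy nervous system are known for low class I levels that rise in inflammation.

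The promoters of the heavy chains and B2m are shown because these 3 genes hold a pair of short motifs at the same spacing. The sequences are from RefSeq promoters of build GRCm38.p6, read 5′ to 3′ towards the gene, with position -1 as the last base before the RefSeq start. The printed H2-K1 stretch ends at -1 and that of B2m at -2. Capitals mark matches, on either strand, to the interferon regulatory factor core AANNGAAA and the NF-kB consensus, and the X2 core TGACG where it lies exactly 20 bases before the Y core ATTGG.
H2-K1 upstream (chr17:34000348-34000547, minus strand): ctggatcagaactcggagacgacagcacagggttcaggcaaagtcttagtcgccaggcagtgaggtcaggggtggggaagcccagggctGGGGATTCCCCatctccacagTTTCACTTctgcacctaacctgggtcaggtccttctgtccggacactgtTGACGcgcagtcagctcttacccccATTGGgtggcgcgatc
B2m upstream (chr2:122147487-122147685, plus strand): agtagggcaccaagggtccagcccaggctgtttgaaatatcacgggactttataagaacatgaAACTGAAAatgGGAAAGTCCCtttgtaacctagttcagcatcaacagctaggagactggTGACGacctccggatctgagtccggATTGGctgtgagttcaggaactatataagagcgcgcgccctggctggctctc
In H2-K1 the NF-kB match begins at -111, the interferon factor match at -90 and the X2 core at -41, in that order towards the gene. In B2m the interferon factor match comes first, at -137, followed by the NF-kB match at -126 and the X2 core at -78. In neither window do the NF-kB and interferon factor matches overlap each other.

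For H2-D1 only the motif stretches are printed, because a GENCODE M21 transcript of the gene begins upstream of its RefSeq start. Its stretch from the NF-kB match to the interferon factor match was identical to that of H2-K1 at 28 of 29 bases.
H2-K1 NF-kB to interferon factor match (chr17:34000430-34000458, minus strand): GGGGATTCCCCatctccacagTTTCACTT
H2-D1 NF-kB to interferon factor match (chr17:35262923-35262951, plus strand): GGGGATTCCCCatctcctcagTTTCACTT
The X2 to Y stretches of the 3 genes keep the 20-base spacing with other letters between. H2-D1 matched H2-K1 at 23 of 30 bases, and B2m matched H2-K1 at 13 and H2-D1 at 12.
H2-K1 X2 to Y (chr17:34000359-34000388, minus strand): TGACGcgcagtcagctcttacccccATTGG
H2-D1 X2 to Y (chr17:35262993-35263022, plus strand): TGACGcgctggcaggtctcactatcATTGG
B2m X2 to Y (chr2:122147609-122147638, plus strand): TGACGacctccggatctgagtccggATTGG
Of all 32851 RefSeq windows of 250 bases before a start, 21.3% held the interferon factor core, 7.25% the NF-kB consensus, 17.8% the X2 core and 33.8% the Y core. The spaced pair, whose spacing was chosen after these sequences were seen, was in 30 windows (0.0913%), belonging to 26 of 27025 symbols, H2-K1, H2-D1, B2m and the class Ib gene H2-M3 among them. Of the 9 genes, 7 had a promoter in the table, and Tap2 and Nlrc5 had none there. The windows of Tap1, Tapbp, Psmb9 and Psmb10 held neither the interferon factor core nor the NF-kB consensus in these letters. A match is a string of letters and was not tested as a binding site.

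Most of the genes lie on chromosome 17 of GRCm38, as annotated by GENCODE M21: H2-K1 (chr17:33996017-34000347), H2-D1 (chr17:35262730-35267499), Tap1 (chr17:34187553-34197225), Tap2 (chr17:34203527-34216321), Psmb9 (chr17:34181987-34187764) and Tapbp (chr17:33915899-33929292). B2m is at chr2:122147686-122153083, Psmb10 at chr8:105935735-105938444 and Nlrc5 at chr8:94434356-94527272. How reads shared between genes were counted, and whether strand was used, is not given in the sources used here. Of all 50-base words in their transcripts, 9.63% in H2-K1 and 12.8% in H2-D1 also occur in other genes, most often the class Ib genes H2-Q10 and H2-Q1, so these counts are uncertain to that extent. Exons of other genes cover 29.0% of the exonic bases of Tapbp and 18.5% of those of Tap2, so reads there cannot be told apart without strand. In Tapbp 149 of these bases are shared with Zbtb22 on the same strand, where strand would not separate the reads either. For Tap1 and Psmb9, which overlap each other head to head, the shared part is 212 bases.

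Library totals ran from 2547296 to 9002546 counts in the untreated set, 1990744 to 7883251 at 2 h and 2882539 to 33283346 at 24 h, and the 9 genes held from 0.335% to 2.80% of a library's counts. Intervals cover the spread between libraries, and PCR copies without molecular identifiers are not independent molecules. The 8 glial markers were detected in every group, with summed CPM (counts scaled to a common library size, with TMM factors) from 547 to 17381 across libraries. Gpr37 had at most 3 counts in 17 of 18 knockout libraries, with a highest count of 9. Of the 19 libraries labelled wild type, 4 also had at most 3 counts, all after LPS: those labelled mouse 3 in both regions, and mice 5 and 8 in the colon. The small intestinal library of mouse 8 had 100 counts. A count of at most 3 was also found in 2 of 11 untreated and 6 of 16 2 h libraries of myenteric glia, whose labels name no deletion. All were of the colon except replicate 2 after LPS in the small intestine at 2 h, with 3 counts. In the colon such a count alone thus does not set a library's genotype. The small intestinal library of mouse 3 had 0 counts, and no untreated or 2 h myenteric library of that region was as low. The share of mitochondrial counts had a median of 15.4% in the 12 libraries of mice numbered up to 10 and 4.57% in the 25 others, and the mice numbered up to 10 gave 0 of 4 wild-type PBS and 3 of 5 wild-type LPS colon libraries. Where a call at 24 h changed without mouse 3, or with the fit restricted to mice numbered 11 and above, the changed value stands with the result. That restriction keeps only mice 13 and 16 of the wild-type LPS libraries in each region, so its results rest on very few animals.

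Per kilobase of exon, the order of levels began and ended the same way in all 16 groups. The length used is the union of all annotated exons of a gene, such as 860 bases for B2m and 3660 for Psmb9. It can exceed the length of the transcripts present, so these levels depend in part on the annotation. B2m led, with group means from 2459 to 7579 CPM per kilobase, followed in turn by H2-D1 (814 to 3131), H2-K1 (458 to 1348), Tapbp (91.5 to 416) and Psmb10 (52.0 to 193). Tap1, Tap2 and Psmb9 exchanged places 6 to 8, and Nlrc5 was last in every group (0.416 to 8.45). In untreated myenteric glia of the small intestine the level was 4463 ± 640.3 CPM per kilobase for B2m (SD, n = 6), 567 ± 124 for H2-K1, 16.9 ± 11.5 for Tap1, 17.2 ± 2.15 for Psmb9 and 1.90 ± 0.75 for Nlrc5. The SD ranges of Tap1, Psmb9 and Tap2 in that group overlapped, so their order there was not resolved. The structural chains of the complex were thus carried by far more reads per base than the machinery that loads them.

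In untreated mice the question was whether glial libraries of different sites differ. The submucosal libraries are called glia here after their label. In the small intestine they had higher immune cell and epithelial markers and lower glial markers than the myenteric ones, as given below. The immunoproteasome subunits and tapasin were higher in submucosal than in myenteric libraries of the small intestine. The heavy chains, B2m, the transporters and Nlrc5 were not called between sites by edgeR. By edgeR 3 of 9 genes were called higher in that comparison, where 22.3% of 14090 genes were called higher. Between colon and small intestine none of the 9 genes was called in either layer, where 3.19% (myenteric) and 5.18% (submucosal) of all genes were called.

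For the heavy chain H2-K1 the myenteric libraries of the small intestine had 1354 (lowest), 1549 (median) and 2338 (highest) CPM, and the submucosal ones 1239 (lowest), 2240.1 (median) and 2854 (highest). The colon myenteric libraries had 920.4, 2354, 2494, 2582 and 2815 CPM and the colon submucosal ones 1689, 2412, 2511, 2633 and 3126. All 4 sites overlapped, and the lowest value was the library of replicate 3 in the colon myenteric plexus. H2-D1 ranged from 3411 to 6129 and 1784 to 4243 CPM in the myenteric and submucosal small intestine, and from 2225 to 6159.9 and 3918 to 5525 CPM in the same layers of the colon.

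The light chain B2m had 3007 (lowest), 4014 (median) and 4479 (highest) CPM in myenteric and 2739.6 (lowest), 4895 (median) and 6349 (highest) CPM in submucosal glia of the small intestine. In the colon it had 2853, 3842, 5360.2, 5476 and 7254 CPM in myenteric and 3449.8, 3769, 5382, 5998 and 7129.7 CPM in submucosal glia. These ranges also overlapped throughout, and the submucosal minus myenteric log2 difference in the small intestine had a 95% interval of -0.20 to 0.77 for B2m and -0.06 to 0.91 for H2-K1.

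Psmb9, the immunoproteasome subunit whose gene faces Tap1, had 53.0 (lowest), 61.8 (median) and 76.5 (highest) CPM in small intestinal myenteric glia and 134 (lowest), 169 (median) and 251 (highest) CPM in submucosal glia. No submucosal library of the small intestine was as low as any myenteric one. The log2 fold change was 1.48 ± 0.36 (SE, edgeR adjusted p = 0.00228). Psmb10, another immunoproteasome subunit, ran from 71.9 to 117 CPM in myenteric and 157 to 252 CPM in submucosal glia, again without overlap, with a log2 fold change of 1.14 ± 0.22 (edgeR adjusted p = 0.000369). In the colon Psmb9 had 18.4, 106, 129.7, 130.4 and 157 CPM in myenteric and 59.2, 171, 189.8, 226 and 298 CPM in submucosal glia, which overlapped, and neither subunit was called (edgeR adjusted p = 0.144 for Psmb9 and 0.0674 for Psmb10).

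Tapbp, which holds an empty heavy chain at the transporter, was also called in the small intestine, with ranges of 222 to 409 CPM in myenteric and 262 to 715 CPM in submucosal glia that overlapped. Its log2 fold change was 0.68 ± 0.23 (edgeR adjusted p = 0.0213). The transporter subunit Tap1 had 29.4 (lowest), 84.5 (median) and 206 (highest) CPM in myenteric and 96.2 (lowest), 173 (median) and 301 (highest) CPM in submucosal glia of the small intestine. Its log2 fold change of 0.97 ± 0.41 stayed above the threshold (edgeR adjusted p = 0.0632). The Tap1 call depended on the fit: its adjusted p was 0.0385 with DESeq2, and with edgeR 0.00607 with sex as a covariate and 0.00651 with a replicate block. In the colon Tap1 had 49.6, 95.5, 117, 203 and 229.7 CPM in myenteric and 138, 232, 234, 238 and 289.8 CPM in submucosal glia, with overlap. Tap2 ranged from 60.0 to 147 CPM in the myenteric and 80.2 to 197 CPM in the submucosal small intestine, and was not called (edgeR adjusted p = 0.0797). Without submucosal replicate 1, or without myenteric replicate 6, both Tap1 and Tap2 were called and the count was 5 of 9. Without submucosal replicate 2 Tap1 was called, and without submucosal replicate 3 Tap2. The Tapbp call was lost without myenteric replicate 2 (edgeR adjusted p = 0.0521), submucosal replicate 3 (edgeR adjusted p = 0.0534) or submucosal replicate 6 (edgeR adjusted p = 0.0541).

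Nlrc5, the transactivator, was the least abundant of the 9 at each site. It had 7.90 (lowest), 15.2 (median) and 27.3 (highest) CPM in myenteric and 11.2 (lowest), 20.2 (median) and 30.2 (highest) CPM in submucosal glia of the small intestine. The colon libraries had 3.73, 25.0, 28.0, 34.8 and 47.8 CPM in the myenteric and 9.26, 14.1, 20.3, 21.8 and 26.9 CPM in the submucosal layer. No pair of sites was separated, and replicate 3 again had the lowest colon myenteric value.

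The layers of the small intestine differed widely, with 43.5% of all genes called in either direction. Groups did not overlap for 2 of the 9, against 13.4% of all genes in that direction. The count of 3 in 9 was thus little above the background, and the median log2 fold change of the 9 was 0.56 against 0.06 over all genes. In the colon 0 of 9 were called between layers by edgeR, where 21.8% of all genes were called. There 1 of 9 had an unadjusted p under 0.05, against 4932 of 14090 genes, and DESeq2 called 1 of the 9 and 3745 of all genes. Between colon and small intestine edgeR called 0 of 9 in myenteric glia, and 0 of 9 in submucosal glia. Unadjusted p-values under 0.05 were found for 3 and 0 of the 9 in these comparisons, against 2339 and 2496 of all genes. DESeq2 called 0 of the 9 in both. All 9 myenteric differences were positive towards the colon, with a median of 0.51 against 0.01 over all genes.

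**Figure D1:**
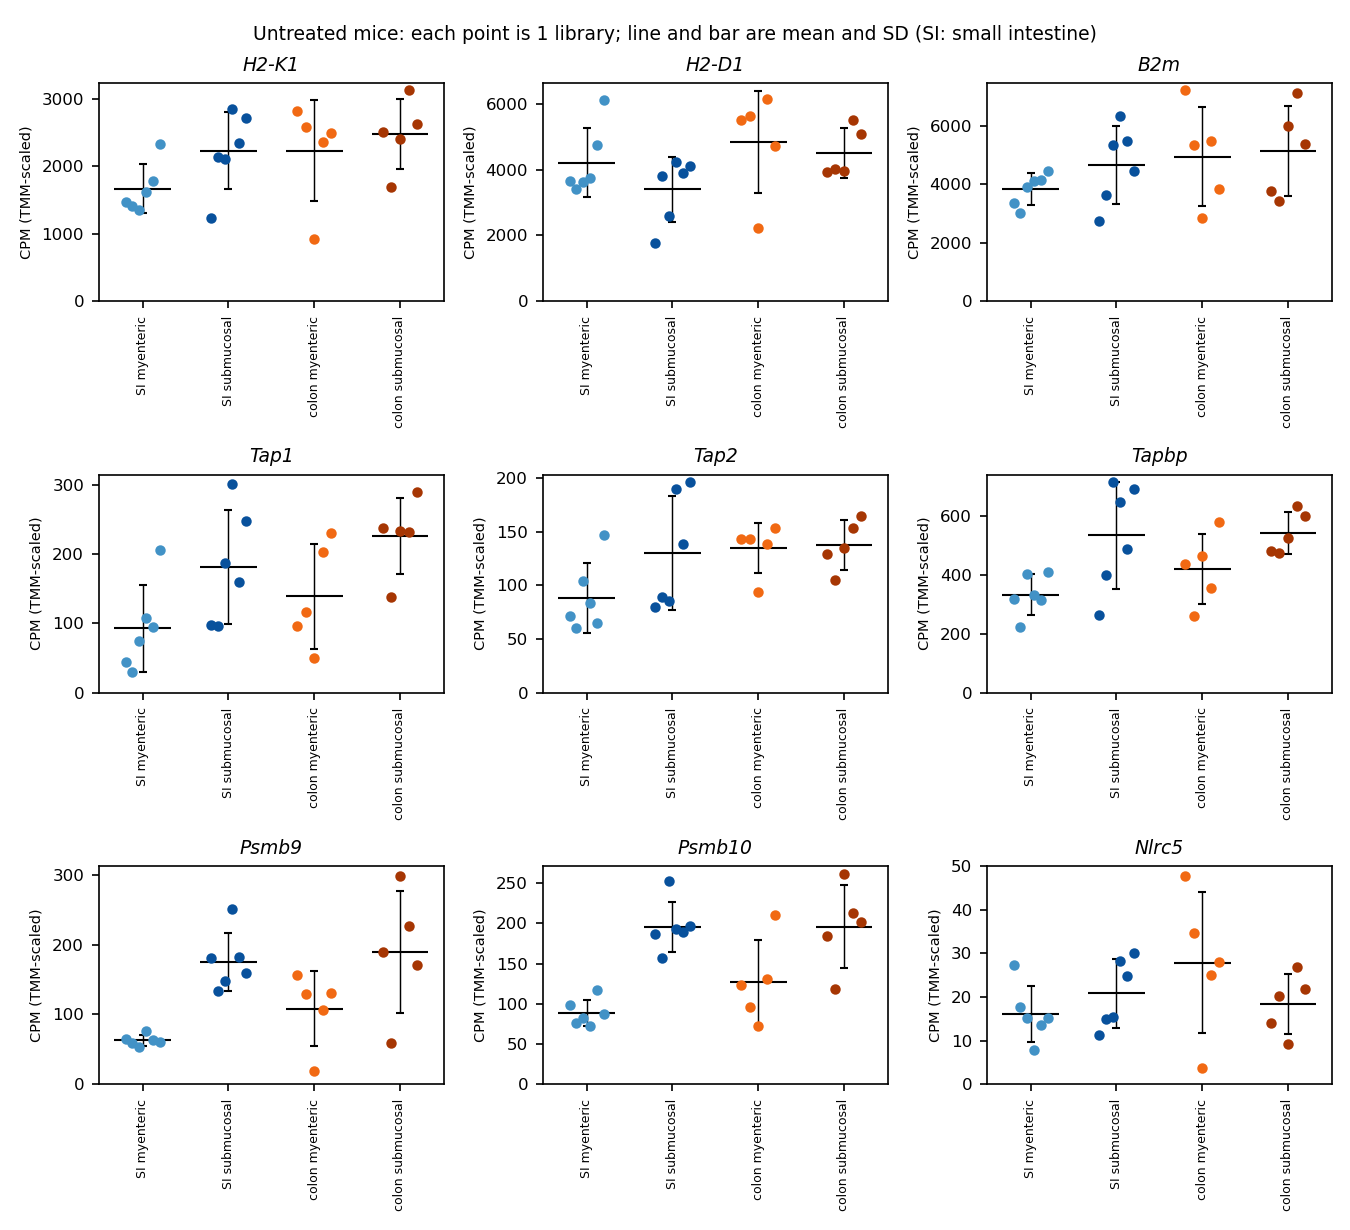
CPM (TMM-scaled, linear axis from 0) of each of the 9 genes in untreated libraries, by gut region and layer; each point is 1 library, and the line and bar are the mean and SD. The submucosal libraries of the small intestine lie wholly above the myenteric ones for Psmb9 (134 to 251 against 53.0 to 76.5 CPM) and Psmb10, and overlap them for the other genes.

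Of 48 tested genes on 4 further lists of the pathway, 21 were called higher and 1 lower in submucosal glia of the small intestine, and 9 higher and 0 lower in the colon. Over all genes 22.3% were called higher in that comparison of the small intestine, and 21.8% were called in either direction in that of the colon. In the small intestine 7 of 15 other class I heavy chains were higher and 1 lower. H2-T3, a class Ib gene of the gut epithelium, had at most 3 counts in any myenteric library there and 11.7 to 51.0 CPM in the submucosal ones. H2-Q2 was at 5.06 ± 0.84 on the log2 scale, and H2-Q4 was the lower one (-1.79 ± 0.36). Of the proteasome list 3 of 7 were higher, Psmb8, Psme1 and Psme2, the partner subunit and the regulator subunits of the immunoproteasome. Psmb8 had a log2 fold change of 1.34 ± 0.27 (edgeR adjusted p = 0.000471). Of the signalling list 8 of 18 were higher, with Irf8, a factor of myeloid and B cells, at 3.42 ± 0.45 (14.0 to 55.5 CPM in myenteric and 233 to 527 CPM in submucosal libraries) and Irf1 at 0.77 ± 0.24. In the colon the smallest p-values were those of H2-T3, the interferon gamma receptor genes Ifngr2 (1.39 ± 0.27) and Ifngr1 (0.68 ± 0.18), Irf8 (2.31 ± 0.47), H2-Q2 (3.15 ± 0.82) and Irf1 (0.89 ± 0.27). All 7 MHC class II genes, which professional antigen-presenting cells use, were called higher in the submucosal libraries of both regions.

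Markers of other cells moved in the same comparison. In the small intestine 7 of 7 macrophage, 5 of 5 T and NK, 4 of 4 B and plasma cell and 5 of 5 epithelial markers were called higher in the submucosal libraries, and 8 of 8 glial markers lower. Summed B and plasma cell markers ran from 3.18 to 1099 CPM in myenteric and 14158 to 132791 CPM in submucosal libraries, macrophage markers from 70.0 to 1498 and 1319 to 7336, and glial markers from 9240.3 to 14323 and 547 to 2088. In the colon 6 of 7 macrophage, 5 of 5 T and NK and 4 of 4 B and plasma cell markers were called higher and 4 of 8 glial markers lower. The share of mitochondrial counts moved too, from 11.6% to 18.8% in the myenteric and 2.84% to 9.43% in the submucosal libraries of the small intestine. The part of these measures in the differences of Psmb9, Psmb10 and Tapbp between layers was not tested. In libraries of this kind fewer cells of a type and less RNA per cell cannot be told apart.

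At 2 h after LPS the question was the early response. None of the 9 genes was called by edgeR, which called 1.10% of all genes in small intestinal and 0.778% in colonic glia, although Irf1, an interferon-responsive activator of class I genes, had already risen. Irf1 ran from 47.0 to 119 CPM after PBS and 652 to 1193 CPM after LPS in the small intestine, with a log2 fold change of 3.22 ± 0.31 (edgeR adjusted p = 3.27e-05). In the colon it ran from 77.9 to 111 and 684 to 1321 CPM, with a log2 fold change of 3.42 ± 0.31 (edgeR adjusted p = 2.19e-05). It was the one gene of 45 tested on the pathway lists that was called at 2 h in each region, and Psmb8 (0.09 ± 0.29 in the small intestine, -0.13 ± 0.29 in the colon) was not.

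Tap1, the transporter subunit that changed most later on, had 62.4, 72.9, 166 and 169 CPM after PBS and 121, 164, 203 and 279.7 CPM after LPS in the small intestine at 2 h. The colon libraries had 89.6, 116, 171 and 219 and 140.0, 149, 209 and 293 CPM. PBS and LPS libraries overlapped in both regions, and the log2 fold changes of 0.71 ± 0.39 and 0.41 ± 0.39 had 95% intervals of -0.06 to 1.47 and -0.35 to 1.17.

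H2-K1 had 973, 1866, 1971 and 2466 CPM after PBS and 1321, 1503, 1761 and 2656 CPM after LPS in the small intestine at 2 h. In the colon it had 2274, 2523, 2643 and 2804 and 1971, 2335, 2640.1 and 2842 CPM. The treatments overlapped nearly fully, and the intervals of the log2 fold change were -0.53 to 0.51 and -0.59 to 0.46. B2m had 2621, 3808, 4055 and 4721 CPM after PBS and 2802, 2979, 4193 and 5662 CPM after LPS in the small intestine, and 5241, 5675, 6325 and 7331 and 5698, 6212, 6411 and 7749.8 CPM in the colon. Its intervals were -0.44 to 0.52 and -0.39 to 0.56, so a log2 change of 1 at 2 h lay outside them.

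Psmb9 had 73.3, 93.1, 94.5 and 106 CPM after PBS and 58.3, 60.3, 86.5 and 104 CPM after LPS in the small intestine at 2 h, and 99.1, 101, 115 and 122 and 85.8, 109.8, 124 and 148 CPM in the colon. Here too the treatments overlapped. Nlrc5 had 1.46, 4.91, 9.23 and 10.6 CPM after PBS and 0.402, 0.795, 6.37 and 6.55 CPM after LPS in the small intestine, and 0.46, 2.00, 3.96 and 28.2 and 5.13, 5.75, 24.1 and 28.0 CPM in the colon. The lowest of these Nlrc5 values were near the depth limit, since 3 counts correspond to 0.359 to 1.46 CPM in this experiment, and the intervals of its fold change were wide (-3.24 to 1.46 and -1.49 to 3.22).

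In both regions edgeR called 0 of 9 genes at 2 h, of 13107 tested. None of the 9 had an unadjusted p under 0.05, against 681 (small intestine) and 987 (colon) of all genes. DESeq2 called 0 of the 9 in either region, and 261 and 277 of all genes. The medians of the 9 log2 fold changes were -0.09 (small intestine) and 0.10 (colon), against -0.02 and 0.00 over all genes. The difference of the response between regions was called for 0 of 9 genes and for 0% of all genes by edgeR. For that difference none of the 9 had an unadjusted p under 0.05, against 452 of all genes, and DESeq2 called 0 of the 9 and 44 genes.

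At 24 h after LPS, 7 of the 9 genes were called higher in the small intestine of wild-type mice, all except Psmb9 and Nlrc5, against 4.18% of 14903 genes. In the colon 3 of 9 were called higher, Tap1, Tapbp and Psmb10, against 3.96%. Tap1 changed most in both regions, 9.17-fold in the small intestine and 5.37-fold in the colon, followed by its loading partner Tapbp among the called genes.

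Tap1 had 55.0 (lowest), 80.1 (median) and 113 (highest) CPM in wild-type small intestine after PBS and 445, 576, 877 and 1119 CPM after LPS. In the wild-type colon it had 107, 126, 146 and 180.5 CPM after PBS and 604, 667, 703, 873 and 914 CPM after LPS. Each LPS library lay above each PBS library of its region. The log2 fold changes were 3.20 ± 0.39 (edgeR adjusted p = 1.73e-06) in the small intestine and 2.43 ± 0.43 (edgeR adjusted p = 0.000607) in the colon. Without mouse 3 they were 3.13 and 2.51, and within mice numbered 11 and above 2.66 and 2.31, and the call held each time.

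Tapbp ran from 309 to 728 CPM after PBS and 1381 to 1626 CPM after LPS in the small intestine, and from 497 to 637 and 732 to 1892 CPM in the colon, without overlap in either. Its log2 fold changes were 1.52 ± 0.24 (edgeR adjusted p = 8.71e-05) and 1.30 ± 0.26 (edgeR adjusted p = 0.00232). Tap2, the partner subunit, ran from 70.8 to 122 and 129 to 274 CPM in the small intestine, with a log2 fold change of 1.06 ± 0.28 (edgeR adjusted p = 0.0153). Within mice numbered 11 and above it was 0.68 and was not called (edgeR adjusted p = 0.107), and the call was also lost without the LPS library of mouse 3 or mouse 8. In the colon Tap2 was at 0.75 ± 0.29 and was not called (edgeR adjusted p = 0.104). The difference between the fold changes of Tap1 and Tap2 was not tested.

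H2-K1 had 1027 (lowest), 1281 (median) and 1762 (highest) CPM in the small intestine after PBS and 2293, 2631, 2668 and 2963 CPM after LPS. The groups did not overlap, and the log2 fold change was 0.97 ± 0.31 (edgeR adjusted p = 0.0467). In the colon it had 1780.5, 1803, 1992 and 2349 CPM after PBS and 1865, 3088, 4192, 4666 and 5988 CPM after LPS, and the lowest LPS library, mouse 8, lay inside the PBS range. The colon log2 fold change of 1.00 ± 0.33 missed the threshold (edgeR adjusted p = 0.054). For H2-D1 the ranges were 1078 to 2939 and 4604 to 6142 CPM in the small intestine (log2 fold change 1.30 ± 0.39, edgeR adjusted p = 0.0392), and 3225 to 3969 and 2979 to 13488 CPM in the colon (1.20 ± 0.43, edgeR adjusted p = 0.0729).

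The heavy chain calls were near the threshold and moved with the libraries used. Without mouse 3, small intestinal H2-K1 was at 0.99 (edgeR adjusted p = 0.0873) and H2-D1 at 1.36 (edgeR adjusted p = 0.0569), and neither was called. Leaving out 1 library ended the H2-K1 call for 9 of the 10 small intestinal libraries and the H2-D1 call for 6 of them (LPS mice 3, 8 and 16, and PBS mice 9, 14 and 19). In the colon, within mice numbered 11 and above, both were called, H2-K1 at 1.18 (edgeR adjusted p = 0.017) and H2-D1 at 1.47 (edgeR adjusted p = 0.0177). They were also called there without mouse 8, at 1.18 (edgeR adjusted p = 0.0245) and 1.41 (edgeR adjusted p = 0.0396), and with DESeq2.

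B2m had 1399 (lowest), 1982 (median) and 3154 (highest) CPM in the small intestine after PBS and 4365, 4387, 4635 and 7254 CPM after LPS, again without overlap. Its log2 fold change there was 1.29 ± 0.35 (edgeR adjusted p = 0.0192). The wild-type colon libraries had 3664, 3694, 3766 and 3915 CPM after PBS and 2895, 4719, 7822, 8151 and 8188 CPM after LPS. Of the 5 colon LPS libraries 4 lay above the PBS range and mouse 8 lay below it, and B2m was not called there (0.76 ± 0.37, edgeR adjusted p = 0.201). Within mice numbered 11 and above colon B2m was called, at 1.11 (edgeR adjusted p = 0.0476). The small intestinal call was lost without the LPS library of mouse 16 (1.08, edgeR adjusted p = 0.091). The colon library of mouse 8 had 9137 CPM of summed epithelial markers, against 4.67 to 5668 in the other 4 of its group.

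Of the immunoproteasome subunits, Psmb10 was called in both regions and Psmb9 in neither, and their fold changes were not tested against each other. Psmb10 ran from 121 to 155 CPM after PBS and 145 to 377 CPM after LPS in the small intestine, and its log2 fold change was 1.07 ± 0.28 (edgeR adjusted p = 0.0139). That call was lost without mouse 3 (0.93, edgeR adjusted p = 0.0642) and within mice numbered 11 and above (0.72, edgeR adjusted p = 0.081), and without the library of mouse 8. In the colon it was 1.10 ± 0.30 (edgeR adjusted p = 0.0199), but 0.35 within mice numbered 11 and above (edgeR adjusted p = 0.452), where Psmb9 was at 0.30. The colon call was also lost with the compared groups alone and with mouse number as a covariate. Leaving out any of 5 of the 9 libraries singly ended it too (LPS mice 3 and 8, and PBS mice 14, 19 and 24). Psmb9 had 28.6 (lowest), 36.8 (median) and 52.7 (highest) CPM after PBS and 32.2, 43.0, 58.5 and 73.9 CPM after LPS in the small intestine, and 45.2, 53.7, 84.0 and 88.8 and 79.9, 85.2, 90.8, 105 and 123 CPM in the colon. Its groups overlapped in both regions, and the log2 fold changes of 0.44 ± 0.36 and 0.51 ± 0.38 were not called (edgeR adjusted p = 0.529 and 0.43).

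Nlrc5 had 6.76 (lowest), 24.1 (median) and 26.7 (highest) CPM in the small intestine after PBS and 15.1, 40.3, 65.9 and 112 CPM after LPS. In the colon it had 10.6, 29.1, 31.5 and 47.3 CPM after PBS and 0, 31.0, 59.3, 69.2 and 123 CPM after LPS, the value of 0 being mouse 3. The spread was as wide as the difference, and the log2 fold changes of 1.47 ± 0.90 and 0.93 ± 0.97 had intervals of -0.30 to 3.24 and -0.97 to 2.83. Neither was called.

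Groups did not overlap for 6 of 9 in the small intestine and 2 of 9 in the colon, where 6.21% and 4.35% of all genes did not overlap upwards. The median log2 fold change of the 9 was 1.29 and 1.00, against -0.13 and -0.03 over all genes, and 9 of 9 were positive in each region. Without mouse 3 the small intestinal count was 4 of 9, and within mice numbered 11 and above it was 5 in each region. With mouse number (up to 10, or above) as a covariate it was 5 in the small intestine, where H2-K1 (edgeR adjusted p = 0.0676) and H2-D1 (edgeR adjusted p = 0.0521) were lost, and 2 in the colon, where Psmb10 was lost (edgeR adjusted p = 0.107). With 1 LPS library of the small intestine left out it was 3 (mouse 3 or mouse 8), 4 (mouse 16) or 6 (mouse 13), and with 1 PBS library left out 5 to 7. Tap1 and Tapbp were called under every alternative fit and with every library left out in turn, in both regions.

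**Figure D2:**
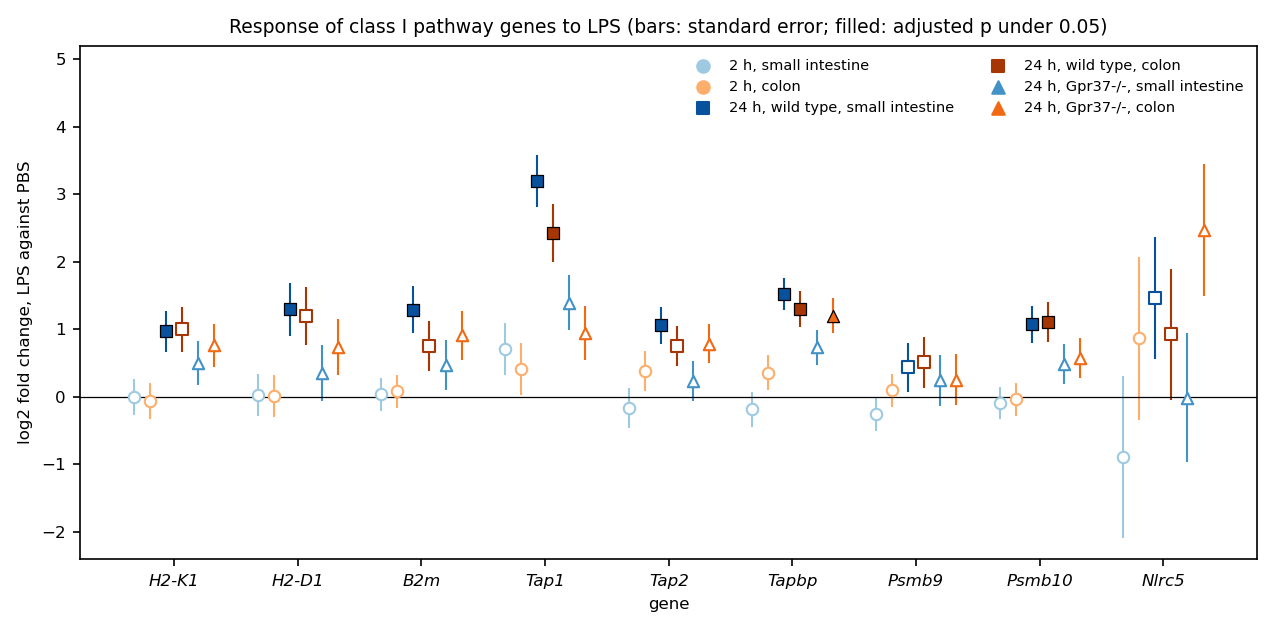
Log2 fold change of LPS against PBS for each of the 9 genes at 2 h (circles), at 24 h in wild-type mice (squares) and at 24 h in Gpr37-/- mice (triangles), in blue for the small intestine and orange for the colon; bars are standard errors and filled points had an edgeR adjusted p under 0.05. No 2 h point is filled, and the wild-type points are led by Tap1 at 3.20 (small intestine) and 2.43 (colon).

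**Figure D3:**
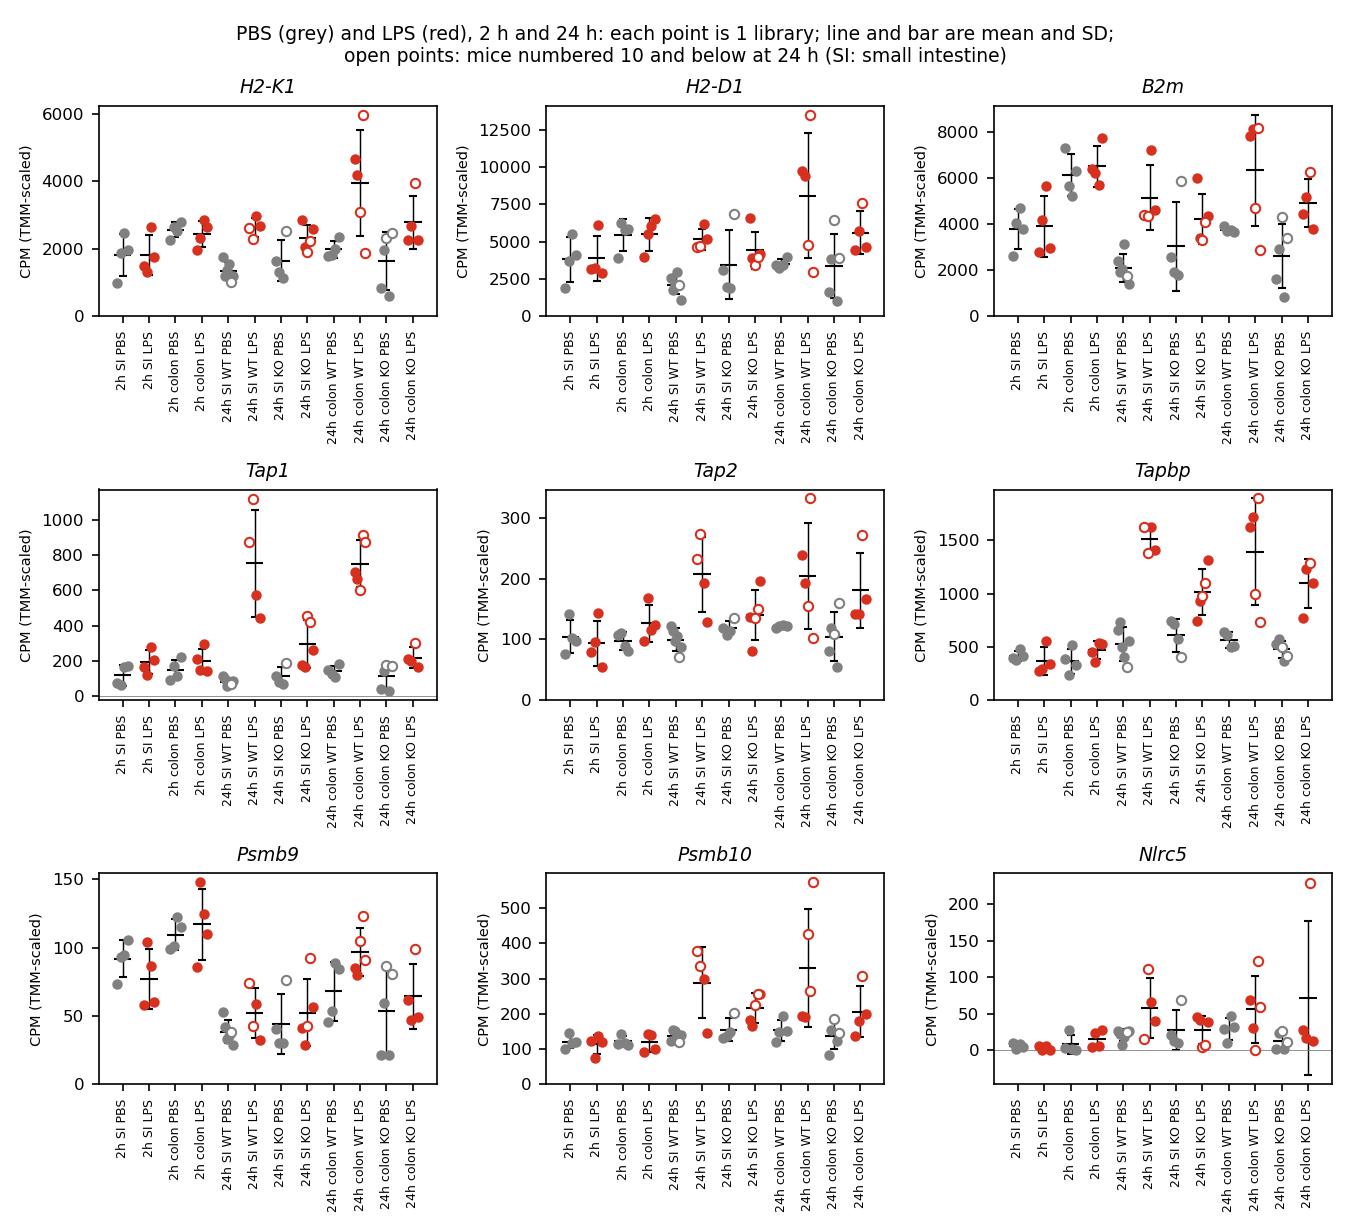
CPM (TMM-scaled, linear axis) of each of the 9 genes in every PBS (grey) and LPS (red) library at 2 h and 24 h, by region and genotype; each point is 1 library, the line and bar are the mean and SD, and open points are mice numbered 10 and below at 24 h. Wild-type LPS libraries at 24 h lie wholly above the PBS libraries for Tap1 in both regions, while the Psmb9 groups overlap.

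Other genes of the pathway also rose. Of 47 tested on the 4 lists, 13 were called higher and 0 lower in the wild-type small intestine, and 10 higher and 0 lower in the colon, where 4.18% and 3.96% of all genes were called higher. Irf7, a factor that amplifies type I interferon responses, had log2 fold changes of 3.86 ± 0.34 (small intestine) and 3.35 ± 0.39 (colon). In each region 5 of 15 other heavy chains were higher, with the class Ib gene H2-T23 at 2.96 ± 0.37 and 2.29 ± 0.40, H2-Q6 at 2.77 ± 0.52 and 2.27 ± 0.58, and H2-T22 at 1.92 ± 0.31 and 1.28 ± 0.34. Of 7 proteasome genes, 5 were higher in small intestinal and 4 in colonic glia. Psmb8, the immunoproteasome subunit that was not among the 9, was at 1.92 ± 0.34 (edgeR adjusted p = 0.000378) and 1.52 ± 0.37 (edgeR adjusted p = 0.0112). The regulator subunits Psme1 (1.48 ± 0.22 and 1.26 ± 0.24) and Psme2 (1.09 ± 0.26 and 1.44 ± 0.28) were called in both. None of the 8 genes on the list for peptide loading and trimming was called in either region. Irf1, high at 2 h, was not called at 24 h (edgeR adjusted p = 0.551 and 0.207). Of the 7 MHC class II genes 0 were called by edgeR in any LPS comparison.

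Neutrophil markers moved with LPS at 24 h. In wild-type mice 3 of 4 tested were called higher in the small intestine and 2 of 4 in the colon, and their summed level ran from 0 to 1.09 CPM after PBS and 5.82 to 605 CPM after LPS in the small intestine, and from 0 to 60.9 and 6.59 to 2132 CPM in the colon. In knockout mice 1 of 4 neutrophil markers was called higher in each region. Of the 7 macrophage markers 0 were called higher in wild-type mice and 1 lower in the small intestine, and summed macrophage markers ran from 98.0 to 919.8 and 157 to 561 CPM in the small intestine and from 96.2 to 356 and 153 to 1113 CPM in the colon, after PBS and LPS. Of the 8 glial markers 1 was called higher in the small intestine and 1 lower in the colon of wild-type mice. Summed glial markers ran from 2196 to 9274 and 1781 to 4303 CPM in the small intestine and from 3827 to 6266 and 1281 to 4923 CPM in the colon. Of the 4 fibroblast markers 1 was called lower in each region of wild-type mice. Their summed level ran from 1225 to 9518 and 597 to 8684 CPM in the small intestine, and from 10126 to 17660.5 CPM after PBS and 281 to 8203 CPM after LPS in the colon, without overlap there. The part of other cells in the 24 h differences was not tested.

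In knockout mice edgeR called none of the 9 genes higher in the small intestine after LPS, against 0.530% of all genes. It called 1, Tapbp, in the colon, against 0.637%. These background shares were also below those in wild-type mice, so the count of members called does not by itself set the genotypes apart.

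Tap1 had 70.6, 81.3, 114 and 186 CPM after PBS and 165, 178, 263, 421 and 456 CPM after LPS in knockout small intestine. The colon libraries had 31.2, 42.6, 143, 171 and 179 and 165, 201, 208 and 301 CPM. The groups overlapped in both regions, and the log2 fold changes were 1.39 ± 0.41 (edgeR adjusted p = 0.105) and 0.95 ± 0.39 (edgeR adjusted p = 0.307). Tapbp ran from 406 to 740.4 and 742 to 1317 CPM in the small intestine and from 368 to 575 and 771 to 1286 CPM in the colon. It was the 1 gene of 9 without overlap in each region, against 3.09% and 2.07% of all genes that did not overlap upwards. It was called in the colon (1.20 ± 0.25, edgeR adjusted p = 0.0147) and not in the small intestine (0.73 ± 0.26, edgeR adjusted p = 0.199). The colon call was lost within mice numbered 11 and above (edgeR adjusted p = 0.0528) and with the compared groups alone. It was also lost without either the colon LPS library of mouse 17 or that of mouse 2.

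H2-K1 had 1136, 1298, 1653 and 2519.6 CPM after PBS and 1919, 2053, 2220.2, 2598 and 2852 CPM after LPS in knockout small intestine, and 610.2, 838, 1951, 2321 and 2477 and 2262, 2267, 2666 and 3940.4 CPM in the colon. B2m had 1787, 1907, 2578 and 5884 and 3297, 3409, 4093, 4367 and 6006 CPM in the small intestine, and 840.1, 1634, 2925, 3388 and 4329 and 3810.3, 4468, 5206 and 6261 CPM in the colon. The PBS groups were uneven: the small intestinal library of mouse 7 lay inside the LPS range for both genes, and the colon libraries of mice 12 and 20 were the lowest of their group. Mouse 7 also had the most summed glial markers of its group (17381 CPM) and the least macrophage markers (38.1 CPM), and the colon library of mouse 20 had 7686 CPM of epithelial markers.

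Psmb9 had 30.1, 30.1, 40.3 and 75.9 CPM after PBS and 28.9, 41.1, 42.6, 56.7 and 92.1 CPM after LPS in knockout small intestine, and 21.0, 21.4, 59.4, 80.7 and 86.8 and 47.3, 49.2, 61.9 and 98.9 CPM in the colon. Nlrc5 had 9.89, 13.1, 21.6 and 68.3 and 5.01, 8.03, 38.7, 41.0 and 45.8 CPM in the small intestine, and 1.30, 1.64, 11.0, 23.4 and 26.9 and 12.6, 17.6, 28.2 and 229 CPM in the colon, where mouse 2 had the highest value. Both genes overlapped between treatments. The colon log2 fold change of Nlrc5, 2.47 ± 0.98, was not called (edgeR adjusted p = 0.284), and was 0.59 without the library of mouse 2 and 1.13 within mice numbered 11 and above. H2-D1, Tap2 and Psmb10 were at 0.35, 0.24 and 0.49 on the log2 scale in the small intestine and at 0.73, 0.79 and 0.58 in the colon.

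The small intestinal values of the knockout mice turned in part on the PBS library of mouse 7. Without it the log2 fold change was 0.99 for H2-D1, 1.08 for B2m, 0.84 for H2-K1 and 0.72 for Psmb10, and within mice numbered 11 and above it was 1.12, 1.18, 0.92 and 0.59. None of these was called by edgeR.

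The median log2 fold change of the 9 in knockout mice was 0.48 (small intestine) and 0.79 (colon), against -0.05 and -0.07 over all genes. In the small intestine, where edgeR called 0 of 9, there were 2 with an unadjusted p under 0.05, against 1709 of 14903 genes. DESeq2 called 2 of the 9 there, and 527 of all genes. In the colon 6 of 9 had an unadjusted p under 0.05, against 1844 of 14903 genes. Of 47 pathway genes, 4 were called higher in each region of the knockout mice, where 0.530% (small intestine) and 0.637% (colon) of all genes were. They were the same 4 in both: Irf7 (3.08 ± 0.38 and 3.40 ± 0.36), H2-T23 (2.18 ± 0.40 and 2.17 ± 0.38), H2-T22 (1.48 ± 0.34 and 1.43 ± 0.33) and Psme1 (1.25 ± 0.24 and 1.19 ± 0.23). Psmb8 was at 1.07 ± 0.37 and 0.94 ± 0.36 and was not called.

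The genotypes were then compared directly. After PBS edgeR called 0 of 9 genes in either region, where 0% of all genes were called. None of the 9 had an unadjusted p under 0.05, against 256 (small intestine) and 629 (colon) of all genes. DESeq2 called 0 of the 9 in either region, and 58 and 74 of all genes. The differences towards the knockout had a median of 0.30 in small intestinal and -0.27 in colonic glia, and some of their signs turned with 1 library left out. Without the small intestinal library of mouse 7 those of H2-K1 (-0.01), B2m (-0.04), Psmb9 (-0.22), Psmb10 (-0.01) and Nlrc5 (-0.53) were negative, and the colon differences of H2-D1 and Psmb10 turned positive without mouse 12, and that of H2-D1 without mouse 20. The signs of the other 11 differences, of 18 in the 2 regions, held in every fit.

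After LPS, Tap1 was lower in knockout than in wild-type colon, the 4 knockout libraries (165 to 301 CPM) all lying under the 5 wild-type ones (604 to 914 CPM). The log2 difference was -1.78 ± 0.41 (edgeR adjusted p = 0.0435), and it was the 1 of 9 genes called, against 0.168% of all genes called lower in that comparison and 1.17% without overlap in that direction. In the small intestine the log2 difference of Tap1 was -1.35 ± 0.39 and did not pass the test (edgeR adjusted p = 0.349), and the highest knockout library (456 CPM) exceeded the lowest wild-type one (445 CPM). Tapbp was the 1 gene of 9 whose knockout libraries there (742 to 1317 CPM) all lay under the wild-type ones (1381 to 1626 CPM), against 1.60% of all genes, and it was not called. There edgeR called 0 of 9 genes, against 0.0134% of all genes in either direction. Of the 9, 2 had an unadjusted p under 0.05, against 1137 of all genes. DESeq2 called 0 of the 9 and 182 of all genes.

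Of the markers of other cells edgeR called 0 between the genotypes after LPS in either region, but several lists lay to one side. In the colon the log2 differences of knockout against wild type ran from 1.21 to 1.70 for the 4 fibroblast, 0.91 to 1.95 for the 4 smooth muscle, 0.98 to 1.95 for the 4 endothelial, 2.40 to 2.74 for the 2 Cajal cell and -4.60 to -2.46 for the 5 epithelial markers. There they also ran from -5.73 to -0.36 for the 4 tested neutrophil markers and from -9.10 to 0 for the 4 B and plasma cell markers. In small intestinal glia they ran from 0.51 to 7.40 for the 7 macrophage and 1.19 to 3.23 for the 4 tested T and NK markers. Their part in the differences of Tap1 and Tapbp was not tested.

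The Tap1 call in the colon rested on few libraries, and it also ended with the compared groups alone or without the filter on low counts. The 3 colon libraries labelled wild type with at most 2 Gpr37 counts are mice 3, 5 and 8, and without mouse 3 the log2 difference was -1.86 (edgeR adjusted p = 0.0685). Within mice numbered 11 and above, which leaves out all 3, it was -1.86 as well (edgeR adjusted p = 0.0281). Only mice 13 and 16 then stand for the wild type. Leaving out any of 6 of the 9 colon LPS libraries singly, wild-type mice 3, 5 and 8 or knockout mice 11, 17 and 21, ended the call, while its value stayed between -1.97 and -1.67.

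Whether the response to LPS itself differed between genotypes was tested as an interaction. In the small intestine the 9 interaction terms had a median of -0.81 against 0.09 over all genes, and edgeR called 0 of 9 and 0% of all genes. Without the PBS library of knockout mouse 7, H2-D1 moved from -0.95 to -0.36, B2m from -0.81 to -0.26 and Psmb9 from -0.19 to 0.22, and within mice numbered 11 and above Nlrc5 moved from -1.48 to 0.08. Tap1 had the largest, -1.80 ± 0.54 (95% interval -2.87 to -0.74, edgeR adjusted p = 1.00). There 3 of the 9, Tap1, Tap2 and Tapbp, and 578 of all genes had an unadjusted p under 0.05, and DESeq2 called 0 of the 9 and 59 genes. In the colon Tap1 was at -1.48 ± 0.57 (95% interval -2.59 to -0.37, edgeR adjusted p = 0.249), and edgeR called 0 of 9 and 0% of all genes. The colon term of Tap1 was -0.83 with mouse number as a covariate and -0.90 within mice numbered 11 and above. In that region 1 of the 9, Tap1, and 2009 of all genes had an unadjusted p under 0.05, and DESeq2 called 0 of the 9 and 340 genes. No difference in response between genotypes passed the test for any of the 9 genes. For H2-K1 the 95% intervals were -1.35 to 0.40 and -1.13 to 0.66.

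Tap1 and Psmb9 are neighbours read in opposite directions, with 225 bases between their RefSeq starts at positions 34187556 and 34187330 of chromosome 17. The interval held 1 X2 core and 1 Y core, not spaced as in H2-K1, and no interferon factor core or NF-kB consensus in the letters searched. Their ratio was chosen after its values were seen and is given with no test. The ratio of Tap1 to Psmb9 CPM at 24 h ran from 1.67 to 2.90 after PBS and from 9.85 to 26.0 after LPS in wild-type small intestine, and from 1.21 to 3.24 and from 5.74 to 9.62 in wild-type colon. In knockout mice it ran from 2.35 to 2.82 after PBS and from 4.33 to 10.7 after LPS in the small intestine, and from 1.46 to 2.41 and from 3.04 to 4.24 in the colon. PBS and LPS libraries did not overlap in any of these 4 pairs of groups. At 2 h the ratio ran from 0.670 to 1.75 after PBS and from 1.16 to 3.37 after LPS in the small intestine, and from 0.904 to 1.90 and from 1.01 to 2.44 in the colon, with overlap in each.

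**Figure D4:**
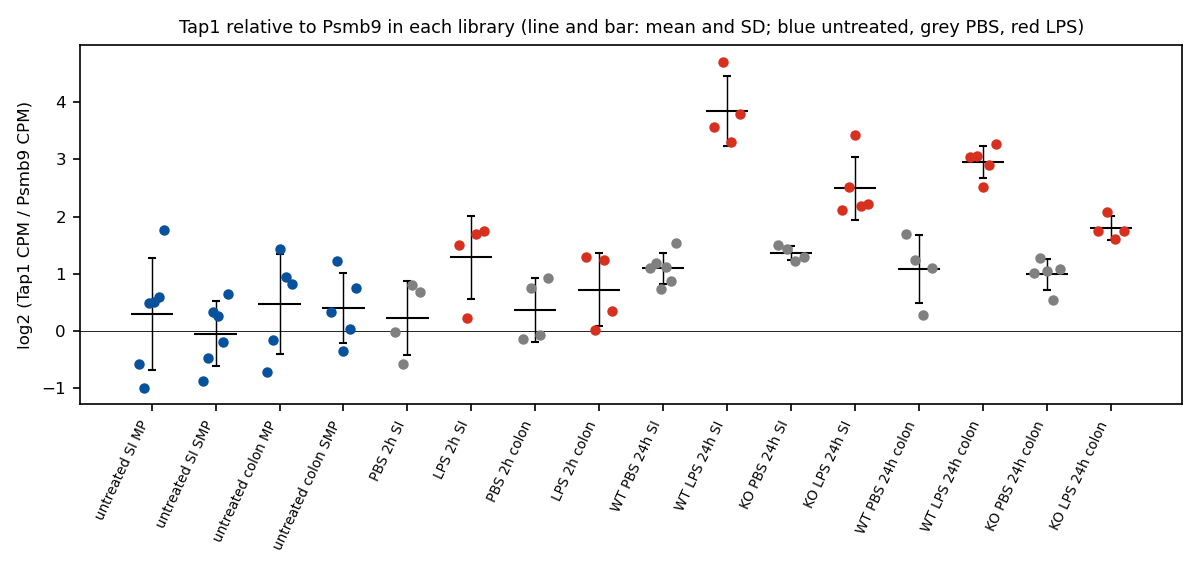
Log2 of the ratio of Tap1 CPM to Psmb9 CPM in each library of all 16 groups (blue untreated, grey PBS, red LPS); each point is 1 library, and the line and bar are the mean and SD. The 24 h LPS libraries lie above the PBS libraries of the same region and genotype in all 4 pairs of groups.

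Within groups, libraries with more of one gene tended to have more of the others. Over all 75 libraries, after subtraction of each group's mean log2 CPM, the 36 pairs of the 9 genes had Pearson correlations from 0.003 to 0.914 with a median of 0.464. H2-K1 and H2-D1 were the closest pair (0.914), and B2m followed them at 0.844 and 0.870. H2-K1 and H2-D1 also share sequence with other class I genes, as given above, and its part in these values was not tested. Against the mean of the other 8, H2-K1 had 0.852, H2-D1 0.786, B2m 0.734, Tap2 0.689, Psmb9 0.624, Tap1 0.620, Nlrc5 0.428, Psmb10 0.317 and Tapbp 0.262. These points share libraries, normalization and mice between regions, and the values are descriptions. Over the same libraries the mean of the 9 was set beside the means of 11 lists of cell markers. The correlations ran from -0.500 (interstitial cells of Cajal, 2 markers) to 0.415 (glia), with epithelium at -0.344, smooth muscle at -0.313, fibroblasts at -0.288 and macrophages at 0.166 among the others.

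Outside the pathway lists, the 10 genes most like the mean of the 9 by this measure, among 9527 genes, were Igtp (0.837), Ifi47 (0.819), Tgtp2 (0.769), Olfr56 (0.729), Gbp6 (0.705), Irgm2 (0.698), Irgm1 (0.695), Zbp1 (0.692), Bst2 (0.653) and Il18bp (0.647). Within the 2 h libraries alone the correlations of these 10 ran lower for most, from 0.184 (Gbp6) to 0.748 (Bst2), against 0.626 to 0.879 in the untreated and 0.607 to 0.906 in the 24 h libraries. The median correlation over all 9527 genes was 0.004 and the 95th percentile 0.338. Igtp, Ifi47, Tgtp2, Irgm1 and Irgm2 encode interferon-inducible GTPases, as does the guanylate-binding gene Gbp6. Zbp1 is a sensor of nucleic acids and Bst2 a membrane protein that tethers viruses. Genes of the pathway lists among the 20 most alike included H2-Q7 (0.838), H2-Q6 (0.784), Psmb8 (0.717), H2-T23 (0.716) and H2-T22 (0.697). Irf7, which rose most of the listed genes with LPS at 24 h in wild-type mice, had 0.223 by this within-group measure.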

How the data were processed

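RNA of enteric glial cells was turned into Smart-seq2 libraries, which carry no molecular identifiers, per the labels' protocols. The authors deposited raw counts per gene symbol. The submitters' processing notes name Trim Galore 0.4.4, STAR 2.5.3, the build GRCm38 and DESeq2. The counter, its annotation and its use of strand are not given in the sources used here. Depth is in the report. A level of 3 counts was 0.329 to 1.11 CPM in the untreated, 0.359 to 1.46 at 2 h and 0.0933 to 1.09 at 24 h.

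Each of the 3 experiments (untreated, 2 h, 24 h) was filtered (filterByExpr), scaled by TMM and fitted with all its groups by edgeR's quasi-likelihood test (edgeR 4.0.16, R 4.3.3). P-values were adjusted over all genes by Benjamini-Hochberg, with a threshold of 0.05, and were two-sided. CPM are TMM-scaled, and levels in different experiments were not tested against each other. The replicates were compared in 143 pairs, of which 0 were identical. The fits were also run on simulated data, and that outcome is not reported here. The 9 genes, the other gene lists and the tests were chosen with earlier results of these data known. All 9 genes are named. Of other pathway genes, those called were named, up to 6 by smallest p in a comparison and with their values in the other region, plus Psmb8 and Irf1; another gene of that rule is not reported here. The 10 genes most like the 9 were named by their within-group correlation, on log2 CPM with a prior count of 2. Alternatives were DESeq2 1.42.0, RLE scaling, no filter, the compared groups alone, sex as a covariate, a replicate block, mouse number (as a covariate, or mice numbered 11 and above only), without mouse 3, and each library left out. Promoters were read from RefSeq (GRCm38.p6), with figures made in matplotlib 3.10.9.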

Additional observations from a re-analysis of the deposited data

Results flagged for a closer look

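Of 144 combinations of gene and group, 10 held a library that stood apart from the rest of its group by Dixon's criterion, where chance alone flags about 1 in 20, or 7.2 of 144. Of these, 5 came from 1 library. Replicate 3 of the untreated colon myenteric plexus was the lowest of its group for H2-K1 (920.4 CPM, the others 2354 to 2815), H2-D1 (2225 CPM, the others 4736 to 6159.9), Tap2 (94.1 CPM, the others 139 to 154), Psmb9 (18.4 CPM, the others 106 to 157) and Nlrc5 (3.73 CPM, the others 25.0 to 47.8). In the submucosal small intestine, replicate 1 was the lowest for H2-K1, at 1239 CPM against 2110.2 to 2854.

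At 2 h after LPS in the small intestine, replicate 3 was the highest for H2-D1, at 6116 CPM against 2923 to 3249. In wild-type mice at 24 h, mouse 16 was the highest for B2m in the small intestine after LPS, at 7254 CPM against 4365 to 4635. Nlrc5 was lowest in mouse 23 in the small intestine after PBS, at 6.76 CPM against 18.4 to 26.7, and in mouse 3 in the colon after LPS, at 0 against 31.0 to 123 CPM. Of 27 tests of a difference in LPS response, between regions at 2 h or between genotypes at 24 h, edgeR called 0 for the 9 genes.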

How the results depend on the processing

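No fold change of the 9 genes that passed the test changed sign under any alternative. The number of the 9 called moved under some settings. Colon submucosal against myenteric glia went from 0 to 1 with RLE size factors and with DESeq2. Small intestinal submucosal against myenteric glia went from 3 to 4 with DESeq2 and with sex as a covariate. Wild-type LPS went from 7 to 4 in the small intestine without mouse 3 and to 5 within mice numbered 11 and above, and from 3 to 5 in the colon with DESeq2 or within mice numbered 11 and above. The colon count was 4 with RLE size factors and 2 with the compared groups alone. With mouse number as a covariate the wild-type counts were 5 and 2. Knockout LPS went from 0 to 2 in the small intestine with DESeq2, and from 1 to 0 in the colon within mice numbered 11 and above or with the compared groups alone. Knockout against wild type after LPS in the colon went from 1 to 0 without the filter on low counts, without mouse 3 and with the compared groups alone. The cause was not tested, beyond the smaller number of libraries in the fits that leave some out. With single libraries left out, the counts ran from 0 to 2 (colon submucosal against myenteric, 2 without submucosal replicate 2), 2 to 5 (small intestine submucosal against myenteric, 5 without submucosal replicate 1 or myenteric replicate 6), 3 to 7 and 2 to 4 (wild-type LPS in small intestine and colon), and 0 to 1 (knockout LPS in each region, and knockout against wild type after LPS in the colon). The other counts stayed at 0.

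Over all genes, counts also moved by over 1.5 times, both between fits and with single libraries left out. Colon against small intestine had 449 genes by edgeR in myenteric glia, and from 246 to 987 (DESeq2) over the alternative fits. In submucosal glia it had 730 by edgeR and 1149 by DESeq2. Colon submucosal against myenteric had 3069, and 1902 with the compared groups alone. At 2 h the counts were 144 and 261 (DESeq2) in the small intestine, and 102, 277 (DESeq2) and 63 (compared groups alone) in the colon. Wild-type LPS had 1069, 1875 (DESeq2) and 1704 (compared groups alone) in the small intestine, and 1186, 2255 and 412 in the colon. Knockout LPS had 107, 527 and 47 in the small intestine, and 107, 474 and 7 in the colon. Knockout against wild type after LPS had 2, 182 and 0 in the small intestine (23 within mice numbered 11 and above), and 64, 719 and 0 in the colon (14 without the filter or without mouse 3, 334 within mice numbered 11 and above). The genotype interaction had 0 by edgeR, 59 (DESeq2) and 3 (compared groups alone) in the small intestine, and 0, 340 (DESeq2) and 25 (mice numbered 11 and above) in the colon. With 1 library left out, the counts ran from 206 to 475 and from 357 to 893 (colon against small intestine, myenteric and submucosal; lowest without small intestinal replicate 4 and without colon replicate 2). At 2 h in the colon they ran from 65 to 108, lowest without PBS replicate 3. Wild-type LPS ran from 641 to 1057 (lowest without mouse 3) and from 551 to 1324 (lowest without PBS mouse 19) in the 2 regions. Knockout LPS ran from 46 (without mouse 7) to 352 (without mouse 11) and from 28 (without mouse 2) to 191 (without mouse 11). Knockout against wild type after LPS ran from 0 to 10 and, in the colon, from 7 (without mouse 11) to 141 (without mouse 16), and the interaction from 0 to 2 and from 0 to 5.

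A replicate block in the fit gave submucosal against myenteric small intestine 4 of 9 called in place of 3, and the other untreated and 2 h counts stayed at 0. Same-numbered libraries shared little, with a mean correlation of deviations of 0.0928 over 30 pairs in the untreated set and 0.0602 over 24 pairs at 2 h. At 24 h the 15 pairs of libraries from 1 mouse had a mean of 0.121, against -0.0016 for other pairs. No paired analysis was possible because the groups compared at 24 h share no mouse. Depth limits Nlrc5, whose lowest values are near 3 counts.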

Other observations

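The mean log2 ratio of Tap1 to Psmb9 CPM, a measure chosen after its values had been seen and given here as a description, was higher after LPS than after PBS in all 6 pairs of groups. At 24 h LPS minus PBS was 2.75 in wild-type small intestine, 1.88 in wild-type colon, 1.13 in knockout small intestine and 0.80 in knockout colon, with no overlap of libraries. At 2 h it was 1.07 (small intestine) and 0.36 (colon), with overlapping groups.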
